A study of Arabidopsis thaliana with 21 samples.

Results

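Seedlings of Arabidopsis thaliana from 2 lines that over-express different inositol phosphorylceramide synthases (IPCS) were compared: the AtIPCS2 line labelled At2+ and the AtIPCS3 line labelled At3++. The comparison used 6 of the 21 libraries of the study, 3 per line, and ran over all genes. These lines were paired because their fold changes against wild-type Col-0 had been seen to be alike in this same table, although the isoforms differ. A low number of differences between them was therefore set by the choice, and what follows describes what still separated them. IPCS moves a phosphoinositol group onto ceramide, the lipid backbone of sphingolipids, and so makes the precursor of the inositol-containing sphingolipids of the plant plasma membrane. Ceramide is also a trigger of cell death in plants, and loss of IPCS activity in Arabidopsis is known for enhanced defence signalling through salicylic acid.

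The study made over-expressing lines by floral dipping of Col-0 with each AtIPCS cDNA in the vector pK7WG2, which drives its insert from a constitutive viral promoter. For each isoform there were 2 lines, labelled + and ++. RNA came from untreated 10-day-old seedlings grown on agar at 20 °C with 16 h of light and 8 h of dark, and was sequenced as poly(A)-selected, stranded, single-end libraries. The groups used were At2+ (AtIPCS2, n = 3) and At3++ (AtIPCS3, n = 3), the other line of each isoform, At2++ (n = 3) and At3+ (n = 2, since replicates 1 and 2 held identical values in all genes and were counted as 1 sample), both AtIPCS1 lines, At1+ and At1++ (n = 3 each), and untransformed Col-0 (n = 3). All shared the Col-0 background and every over-expressing group was a single line, so that isoform, insertion and line cannot be told apart within this pair. The study describes the replicate libraries of a line as technical ones, so p-values measure the technical spread within a line and not the spread between independent lines or cultures.

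Reads counted on genes ranged from 12733113 to 14330182 in At2+ and from 12834075 to 14564962 in At3++, against 14592430 to 15330243 in Col-0. Values are normalized counts, that is, read numbers scaled to a common library size. Fold changes were taken on the scale log2(normalized count + 1) and tested with limma over the 22222 genes whose mean reached 1. Those called here as higher or lower passed a Benjamini-Hochberg adjusted p of 0.05 and differed at least 2-fold, a log2 fold change of 1 in either direction. This scale understates the fold change of low genes.

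The introduced transcripts were read first, since they check the labels. AtIPCS2 stood at 22388, 22157 and 23293 normalized counts in At2+, against 959, 975 and 1023 in At3++, and at 834, 789 and 845 in Col-0. AtIPCS3 stood at 38.4, 41.7 and 31 in At2+, against 6083, 5445 and 5877 in At3++, and at 58.4, 52.3 and 62.3 in Col-0. Each line thus carried its own isoform far above the other line, with log2 fold changes of 4.52 for AtIPCS2 (standard error 0.08, limma adjusted p = 2.76e-23) and -7.26 for AtIPCS3 (standard error 0.40, limma adjusted p = 2.31e-12). The libraries labelled At2+ held more AtIPCS2 than the libraries labelled At2++ (12170, 13120 and 12602), and the libraries labelled At3++ held less AtIPCS3 than the libraries labelled At3+ (12859 and 11006), so the plus signs did not follow the transcript order in either isoform. By the study's qPCR the ++ line was the higher in both. Genes detected were 22519, 22572 and 22627 in At2+ and 22656, 22592 and 22534 in At3++. The study's table of expressed genes gives nearly these numbers under At2++ and At3+. Its seed gene fold changes, however, are larger in At3++ than in At3+, as here. For AtIPCS2 most of its seed storage genes rise more in At2++ than in At2+, with CRA1 among the exceptions. Here the summed level of the seed gene list was 8029 to 10204 in At2+ and 4397 to 5000 in At2++. Its chloroplast-encoded genes also rise more in At2++, whereas here their mean share of reads was 0.65% in At2+ and 0.31% in At2++. Names in this report follow the sample labels and may not match the study's lines. AtIPCS1 was at 151, 177 and 159 in At2+ and at 194, 286 and 238 in At3++, which gave -0.54 on the log2 scale and stayed under the fold minimum (limma adjusted p = 0.00349). Among the 33 tested genes of sphingolipid synthesis and turnover, the introduced AtIPCS2 was the only one called higher and the introduced AtIPCS3 the only one called lower, with a list median of -0.09.

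Between the lines 186 genes were higher in At2+ (0.837% of those tested) and 210 were lower (0.945%), 396 in all (1.78%). The higher genes comprised 91 nuclear, 78 chloroplast-encoded and 17 mitochondrion-encoded genes, whereas all 210 lower genes were nuclear. The libraries of the 2 lines did not overlap for 184 of the higher and 205 of the lower genes, against 28.7% of all genes tested. By the adjusted p alone, 1078 genes (4.85%) were higher and 1251 (5.63%) lower, so most differences that passed the test were under 2-fold. The median over all genes was 0.00. Against Col-0, At2+ had 1058 genes higher (4.76%) and 597 lower (2.69%), 7.45% in all, and At3++ had 897 higher (4.04%) and 514 lower (2.31%), 6.35% in all. With libraries rescaled to the sum over nuclear genes the excess of higher genes was gone, at 780 higher and 992 lower for At2+ and 699 higher and 730 lower for At3++.

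The same isoforms could be compared in the other pair of lines, At2++ and At3+, which shares no library with At2+ and At3++. There 985 genes were higher in At2++ than in At3+ (4.43%) and 723 lower (3.25%), 7.69% in all, and of the nuclear genes 4.02% were higher and 3.27% lower. With libraries rescaled to the sum over nuclear genes, 719 were higher and 991 lower, which made 42% of the calls higher ones, against 57.7% as deposited, so the balance of directions in that pair depended on the scaling. Of the 91 nuclear genes higher in At2+ than in At3++, 23 were also higher in At2++ than in At3+ (25.3% of these, and 2.59% of the 888 nuclear genes higher in that pair), 8 were lower there and 60 were not called. Of the 210 lower genes, 43 were also lower in At2++ (20.5% of these, and 5.95% of the 723 lower in that pair), 68 went the other way and 99 were not called. The difference between the pairs was itself called for 36 of the 91 and 133 of the 210 genes, beside 6.43% of all nuclear genes tested. These genes had been called on At2+ minus At3++, which is part of that difference, so shares above 6.43% were set by the choice. Over all genes tested that difference was called positive for 2.66% and called negative for 3.85%, 6.5% in all. Across nuclear genes, which are not independent replicates, the fold changes in the pairs had a Pearson r of 0.157.

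**Figure D1:**
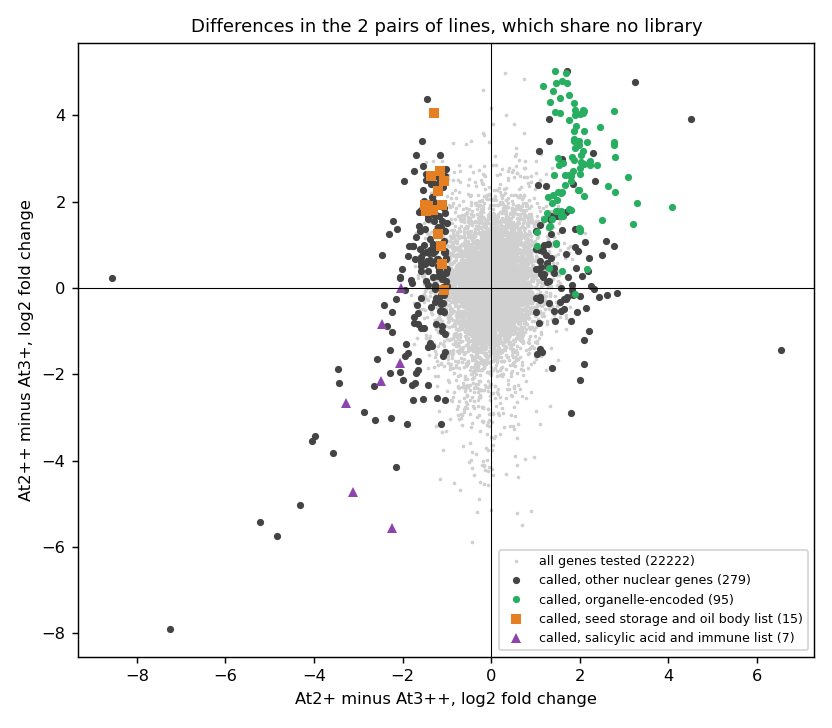
Log2 fold change of each gene in At2+ minus At3++ (horizontal) and in At2++ minus At3+ (vertical), grey for all 22222 genes tested and coloured for the 396 called in At2+ against At3++. The 7 called members of the salicylic acid and immune list lie at the left, at or below 0 on the vertical axis, whereas 14 of the 15 called seed genes lie at the left and above 0, and the called organelle-encoded genes lie at the right, nearly all above 0.

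The lower genes differed in where Col-0 stood. Col-0 was lowest for 84 of the 210 (40%), highest for 66 (31.4%) and between the lines for 60 (28.6%), beside 33.4%, 48.8% and 17.8% of all nuclear genes tested with a negative fold change. Of the 84 genes with Col-0 lowest, 62 were called the other way in the other pair, higher in At2++ than in At3+, and only 1 the same way. Of the 66 with Col-0 highest, 32 were lower in both pairs and 1 went the other way. The first set held the seed genes and the second the defence genes described next.

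Several defence genes were lower in At2+ than in At3++, with Col-0 above both lines. PR1, the pathogenesis-related marker of salicylic acid signalling (chr2:6241640-6242541, TAIR10.1), stood at 7.69, 4.64 and 4.42 in At2+, against 55, 54.4 and 56.3 in At3++, where Col-0 had 1771, 1584 and 1754. PR2, a beta-1,3-glucanase induced with it, stood at 7.69, 5.79 and 6.64 in At2+, against 87.7, 57.6 and 77.9 in At3++ and 312, 338 and 392 in Col-0. AED1, an apoplastic aspartyl protease tied to systemic immunity, stood at 21.8, 20.9 and 21 in At2+, against 135, 109 and 131 in At3++ and 431, 505 and 479 in Col-0. In all 3 genes the 9 libraries fell into 3 steps with no overlap, At2+ lowest, At3++ next and Col-0 highest. The log2 fold changes of At2+ minus At3++ were -3.13 for PR1 (standard error 0.45, limma adjusted p = 4.01e-05), -3.28 for PR2 (standard error 0.33, adjusted p = 2.17e-07) and -2.49 for AED1 (standard error 0.24, adjusted p = 8.97e-08).

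Of the 27 tested genes of the salicylic acid and immune list, 7 were lower in At2+ and 0 higher, with a median log2 fold change of -0.40 beside 0.00 over all genes. The other called members were BDA1, an ankyrin-repeat membrane protein of immune signalling (-2.47), SAG13, a short-chain dehydrogenase of senescence and cell death (-2.25), RLP23, the receptor-like protein that senses a peptide of microbial NLP proteins (-2.07), and LURP1, a gene induced by oomycete infection (-2.03). LURP1 had 57.7, 57.9 and 52 in At2+ and 239, 229 and 225 in At3++, with 1098, 1004 and 1170 in Col-0. In 24 of the 27 members Col-0 was highest of the 3 groups, as it was for 41.6% of all genes tested. Against Col-0, 13 of the 27 were called lower in At2+ and 10 in At3++, and 0 higher in either. The other 20 members were not called. Outside the list AIG1, a gene induced by bacterial avirulence signals, stood at 0, 5.79 and 4.42 in At2+, against 56.1, 42.9 and 56.3 in At3++ and 521, 588 and 574 in Col-0 (log2 fold change -3.98, standard error 0.46, limma adjusted p = 1.85e-06). Summed over the list, the level was 4053 to 4514 in At2+, 5707 to 6158 in At3++ and 10171 to 11183 in Col-0.

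The 4 plant defensins PDF1.2A, PDF1.2B, PDF1.2c and PDF1.3, small antifungal peptides induced through jasmonate and ethylene, were lower as well. PDF1.3 had 1.28, 2.32 and 1.11 in At2+, against 93.8, 97.3 and 86.3 in At3++ and 1128, 1029 and 1075 in Col-0 (log2 fold change -5.21, standard error 0.66, limma adjusted p = 6.3e-06). PDF1.2A had 2.56, 0 and 1.11 in At2+, against 38.7, 40.8 and 34.8 in At3++ and 558, 505 and 519 in Col-0 (log2 fold change -4.32, standard error 0.55, adjusted p = 8.12e-06). PDF1.2B had no read in any At2+ library, against 16.3, 9.42 and 8.39 in At3++, at least 3.21-fold lower when At2+ is set at a floor of 3 reads per library. PDF1.2c, chosen after its values were seen, had no read in At2+ either, against 9.17, 17.8 and 22.8 in At3++, at least 4.67-fold lower at the same floor. No At2+ library reached any At3++ library in these 4 genes, and Col-0 stood above both lines. The 4 genes are near-identical copies, so the division of reads among them is uncertain and they do not count as separate results. ORA59, the ethylene response factor that activates these defensins, stood at 32, 20.9 and 17.7 in At2+, against 57.1, 41.9 and 52.7 in At3++ and 171, 153 and 167 in Col-0 (log2 fold change -1.10, standard error 0.22, adjusted p = 0.00138), and its fold change was -0.93 without At2+ replicate 3, under the fold minimum.

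The promoters of PDF1.2A and PDF1.2B are shown because both hold GCCGCC, the core of the box that ethylene response factors of this kind bind, in the 250 bases before the annotated start. The match is in capitals, both strands were searched, and the sequences come from RefSeq (TAIR10.1).
PDF1.2A (chr5:17907639-17907888, minus strand): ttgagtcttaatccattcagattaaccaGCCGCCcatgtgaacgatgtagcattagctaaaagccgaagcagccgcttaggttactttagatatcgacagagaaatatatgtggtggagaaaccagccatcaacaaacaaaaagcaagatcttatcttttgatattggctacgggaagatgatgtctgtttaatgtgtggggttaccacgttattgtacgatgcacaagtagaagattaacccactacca
PDF1.2B (chr2:11088873-11089122, plus strand): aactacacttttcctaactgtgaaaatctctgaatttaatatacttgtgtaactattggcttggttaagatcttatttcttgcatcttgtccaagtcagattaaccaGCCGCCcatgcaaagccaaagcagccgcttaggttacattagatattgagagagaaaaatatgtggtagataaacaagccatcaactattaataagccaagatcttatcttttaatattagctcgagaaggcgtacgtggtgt
These letters were found in 2 of the 4 defensin promoters, in 7 of 205 promoters of genes lower in At2+ (3.41%), in 0 of 74 of genes higher in At2+, and in 405 of 21383 promoters of tested protein-coding genes (1.89%). TTGACC, a form of the W box of WRKY factors, was in 2 of the 27 promoters of the salicylic acid list (7.41%) and in 12.4% of all.

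In the other pair most of the defence genes described above differed in the same direction. BDA1 (log2 fold change -0.83, limma adjusted p = 0.202) and ORA59 (-0.87, under the fold minimum) were not called there. PR1 stood at 0.997, 2.08 and 1.92 in At2++, against 63.2 and 75.1 in At3+ (log2 fold change -4.74, limma adjusted p = 4.7e-08), and PDF1.3 at 5.98, 5.21 and 0 in At2++, against 172 and 129 in At3+ (log2 fold change -5.41, adjusted p = 2.06e-06). For these genes, PR2, AED1, AIG1, RLP23 and PDF1.2A the difference between the pairs did not pass the test. LURP1 departed from this, with 90.7, 107 and 121 in At2++, 116 and 97.5 in At3+ and a difference between the pairs of -2.02 (limma adjusted p = 3.35e-08). SAG13 had no read in At2++ and 53.4 and 40 in At3+, a wider gap than in At2+ against At3++ (fitted difference between the pairs 3.31, adjusted p = 6.18e-05).

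**Figure D2:**
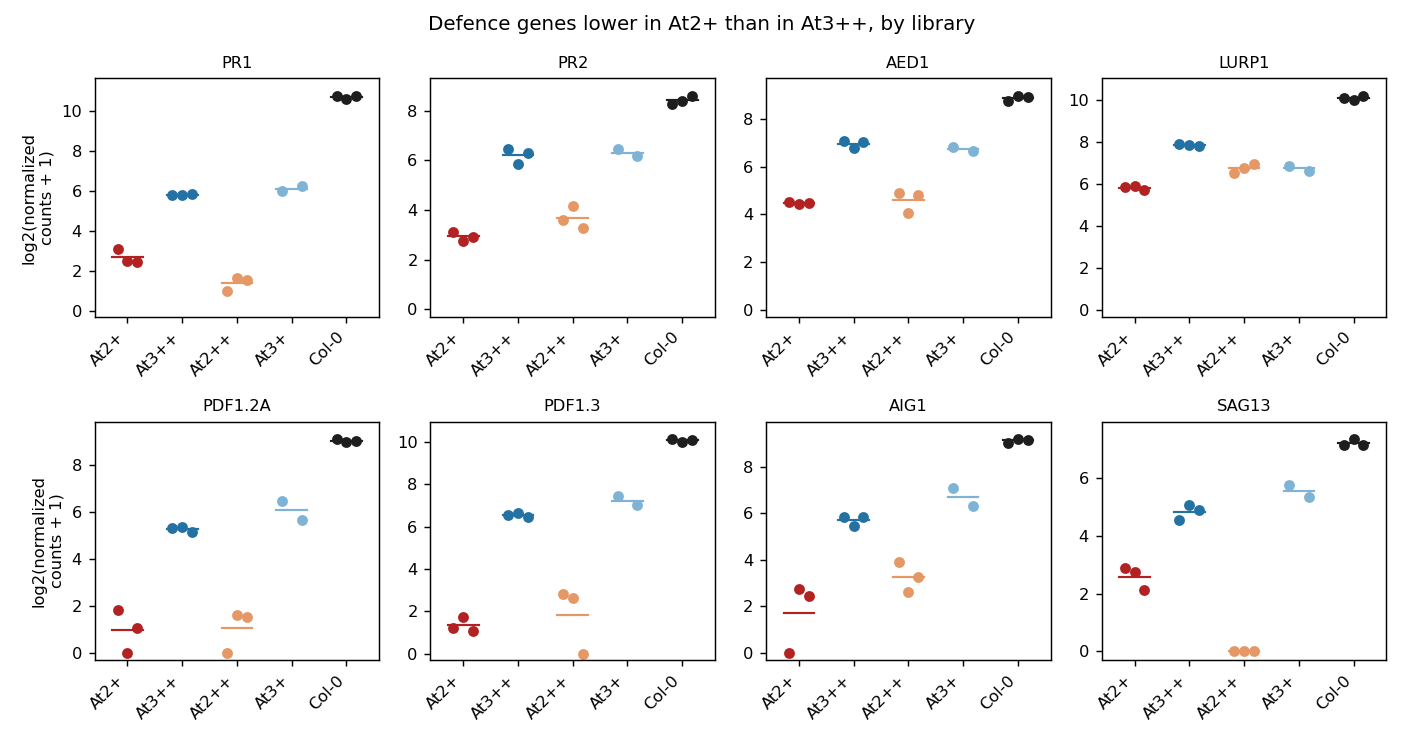
Normalized counts on a log2(value + 1) axis of 8 defence genes in each library of At2+, At3++, At2++, At3+ and Col-0, with points for libraries and lines for means of the log2 values. Every At2+ library lies below every At3++ library in each panel, and Col-0 lies above all of the lines.

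Genes of the maturing seed were also lower in At2+, but here Col-0 was at the bottom. SESA5, a 2S albumin storage protein (chr5:22238358-22239187), stood at 1151, 889 and 815 in At2+, against 2527, 2636 and 2831 in At3++ and 0, 0 and 0.878 in Col-0. CRU3, a 12S cruciferin storage globulin, stood at 2480, 2230 and 2028 in At2+, against 4210, 4934 and 5490 in At3++ and 0.927, 0 and 0 in Col-0. OLEO2, an oleosin that coats oil bodies, stood at 181, 121 and 119 in At2+, against 326, 367 and 430.2 in At3++ and 13.9, 15 and 7.02 in Col-0. Both lines were thus far above Col-0, and the At2+ libraries lay below the At3++ libraries without overlap. The log2 fold changes of At2+ minus At3++ were -1.50 for SESA5 (standard error 0.20, limma adjusted p = 1.54e-05, and 0.0508 with a pseudocount of 0.1), -1.12 for CRU3 (standard error 0.21, adjusted p = 0.00108) and -1.43 for OLEO2 (standard error 0.25, adjusted p = 0.000363).

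Of the 18 tested members of the seed storage and oil body list, 15 were lower in At2+ and 0 higher, the median was -1.18, and all 18 had a negative fold change and Col-0 lowest, where 40.4% of all genes tested had Col-0 lowest. OLEO4, another oleosin, changed by -1.48, PER1, a seed peroxiredoxin, by -1.42, CRA1, a cruciferin, by -1.07, and the late embryogenesis proteins EM6 and EM1 by -1.36 and -1.30. SESA2, SESA3 and SESA4 are neighbours on chromosome 4 and were lower together, with log2 fold changes of -1.16, -1.12 and -1.07. These albumin genes are close copies whose reads may be divided uncertainly. SESA4 fell under the fold minimum without At2+ replicate 2 (-0.95) or At3++ replicate 3 (-0.94), and 13 to 15 members of the list were called lower when any 1 of the 6 libraries was left out. Summed over the list, levels were 8029 to 10204 in At2+, 17891 to 21943 in At3++ and 414 to 474 in Col-0. In RNA from whole seedlings, fewer cells of a type and less RNA per cell cannot be told apart.

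The seed genes went the other way in the other pair of lines. SESA5 stood at 608, 692 and 609.5 in At2++, against 126 and 219.8 in At3+, or 1.93 on the log2 scale (limma adjusted p = 2.1e-07), and the difference between the pairs was -3.43 (adjusted p = 4.38e-09). CRU3 stood at 909.9, 866 and 915 in At2++, against 166 and 330.0 in At3+, with a difference between the pairs of -3.05 (adjusted p = 9.62e-08). Summed over the list, At2++ had 4397 to 5000 and At3+ 1078 to 1751, so the AtIPCS2 line was the higher of this pair and the lower of the other. The summed level was 37797 to 43160 in At1++ and 2814 to 4354 in At1+, which made the order At1++, At3++, At2+, At2++, At1+, At3+ and Col-0, with At2++ and At1+ nearest each other and not overlapping.

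RAB18, an abscisic acid-responsive dehydrin in the list, and NSP2, a nitrile specifier protein of glucosinolate breakdown outside it, were also lower in At2+ than in At3++ and lowest in Col-0. NSP2 stood at 246, 190.0 and 213 in At2+, against 480.1, 541 and 602 in At3++ and 1.85, 0 and 1.76 in Col-0. RAB18 stood at 853, 678 and 739 in At2+, against 1487, 1790 and 1919 in At3++ and 388, 362 and 334 in Col-0. Their log2 fold changes were -1.32 (standard error 0.27, limma adjusted p = 0.00174, and 0.194 with a pseudocount of 0.1) and -1.19 (standard error 0.10, adjusted p = 7.78e-09). NSP2, RAB18 and CRU3 were chosen after their values were seen.

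The promoter of SESA5 is shown because it holds CATGCA, the core of the RY element through which the B3-domain regulators of seed maturation act. All matches on either strand within 250 bases before the start are in capitals, and overlapping matches, as in the first block, were counted separately (4 in all).
SESA5 (chr5:22239188-22239437, minus strand): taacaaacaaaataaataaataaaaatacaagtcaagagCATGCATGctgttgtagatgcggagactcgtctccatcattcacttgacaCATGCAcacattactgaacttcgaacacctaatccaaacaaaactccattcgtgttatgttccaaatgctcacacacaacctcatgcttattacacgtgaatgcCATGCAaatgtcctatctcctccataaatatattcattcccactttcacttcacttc
CATGCA was in 12 of 18 seed list promoters (66.7%), in 37 of the 83 promoters of genes lower in At2+ with Col-0 lowest (44.6%) and, of those outside the seed list, in 27 of 68 (39.7%). It was in 12 of 65 lower genes with Col-0 highest (18.5%), in 10 of 74 higher genes (13.5%) and in 1733 of 21383 promoters of all tested protein-coding genes (8.1%). CACGTG, the G box bound by bZIP and bHLH factors, was in 29 of the 83 promoters (34.9%), beside 7.41% of all. These matches describe the letters in the window and do not show that a factor was bound.

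For a few lower genes with roles in the cell wall or in growth, At2+ stood at the level of Col-0 or below it. TCH4, a xyloglucan endotransglucosylase of touch and brassinosteroid responses, stood at 834, 779 and 806 in At2+, against 2542, 2206 and 2493 in At3++ and 1387, 1378 and 1419 in Col-0. EXO, a brassinosteroid-responsive growth gene, stood at 1194, 1114 and 1117 in At2+, against 2751, 2801 and 2991 in At3++ and 1077, 1101 and 1125 in Col-0. EXLA1, an expansin-like protein, stood at 452, 455 and 479 in At2+, against 1096, 1076 and 1165 in At3++ and 612, 565 and 649 in Col-0. Of these 3 groups At3++ was the highest for each gene, the At2+ libraries overlapped Col-0 for EXO, and they lay below Col-0 for TCH4 and EXLA1. The log2 fold changes of At2+ minus At3++ were -1.58 for TCH4 (standard error 0.07, limma adjusted p = 1.57e-13), -1.32 for EXO (standard error 0.07, adjusted p = 4.1e-13) and -1.26 for EXLA1 (standard error 0.08, adjusted p = 1.33e-11), and -1.58, -1.39 and -1.47 for EXL5 and PHI-1, relatives of EXO, and for XTH33, a wall enzyme of the TCH4 family. TCH4 was the only called member of the 14 tested genes of rapid touch and wound response, whose median was -0.25. The other 5 genes were chosen after their values were seen and stand for no tested group. GH9B15, a wall glycosyl hydrolase also chosen afterwards, had a log2 fold change of -1.49 and another order, averaging 10.2 in At2+, 30.5 in At3++ and 1.5 in Col-0.

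In the other pair TCH4 stood at 2789, 3061 and 2937 in At2++, against 2395 and 2098 in At3+, and EXO at 3543, 4081 and 3644 in At2++, against 2191 and 2090 in At3+. The difference between the pairs passed the test for both, at -1.96 (limma adjusted p = 2.49e-12) and -2.13 (adjusted p = 1.01e-13). At2+ was the lowest of the 6 over-expressing lines for TCH4 and for EXO.

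**Figure D3:**
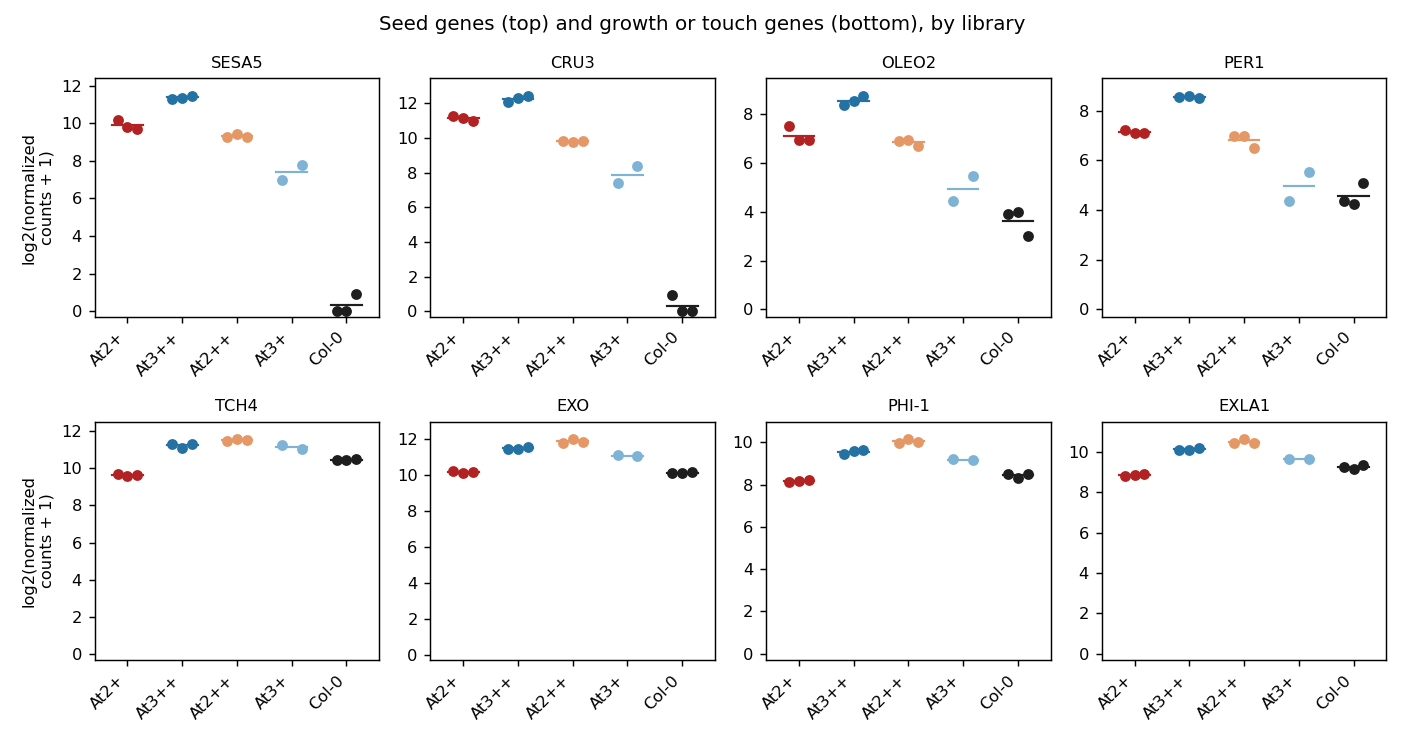
Normalized counts on a log2(value + 1) axis of 4 seed genes (upper row) and 4 growth or touch genes (lower row) in each library of At2+, At3++, At2++, At3+ and Col-0, with points for libraries and lines for means of the log2 values. In the upper row At2+ lies below At3++, At2++ lies above At3+ and Col-0 is lowest or level with At3+, and in the lower row the At2+ libraries lie below Col-0 except for EXO, where they overlap it.

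Fewer nuclear genes were higher in At2+, and they included enzymes of the jasmonate pathway. CYP94B3, which hydroxylates and so inactivates jasmonoyl-isoleucine, stood at 202, 221 and 192 in At2+, against 60.1, 57.6 and 71.9 in At3++ and 49.1, 53.3 and 48.3 in Col-0. LOX3, a lipoxygenase of jasmonate synthesis, stood at 246, 339.5 and 308 in At2+, against 134, 107 and 114 in At3++ and 99.2, 124 and 131 in Col-0. AOC3, an allene oxide cyclase, stood at 227, 211 and 244 in At2+, against 114, 108 and 97.1 in At3++ and 129.8, 123 and 112 in Col-0. For all 3 genes At3++ lay near Col-0 and At2+ above both. The log2 fold changes of At2+ minus At3++ were 1.69 (standard error 0.14, limma adjusted p = 9.24e-09), 1.32 (standard error 0.15, adjusted p = 1.22e-06) and 1.09 (standard error 0.11, adjusted p = 1.9e-07). RAP2.6, an ethylene response factor, was higher by 1.57 and FAMT, a farnesoic acid methyltransferase, by 1.65, although FAMT was highest in Col-0 (69.2, 91.5 and 81.9 in At2+, 21.4, 20.9 and 34.8 in At3++ and 95.5, 108 and 91.3 in Col-0). These 5 genes were chosen after their values were seen.

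The list of jasmonate and ethylene genes did not follow them as a whole, since 0 of its 24 tested members were higher and 4 lower (PDF1.2A, PDF1.2B, ORA59 and JAZ7), with a median of -0.30. JAZ7, a repressor of jasmonate signalling, stood at 32, 17.4 and 24.3 in At2+ and 59.1, 36.6 and 55.1 in At3++ (log2 fold change -1.02, limma adjusted p = 0.00624), and fell under the fold minimum without At2+ replicate 2 (-0.80), At3++ replicate 1 (-0.89) or At3++ replicate 3 (-0.94). In the other pair CYP94B3 and LOX3 were likewise higher in At2++ than in At3+, by 1.77 and 1.59 on the log2 scale (adjusted p = 2.86e-09 and 3.94e-08). AOC3 changed there by 0.62, under the fold minimum, RAP2.6 by -0.01 and FAMT by -0.26, and for the last of these and for RAP2.6 the difference between the pairs passed the test (1.91, adjusted p = 0.00877, and 1.58, adjusted p = 4.82e-06).

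Genes of aliphatic glucosinolates, the methionine-derived mustard oil precursors of the cabbage family, leaned to At2+. All 17 tested members had a positive fold change, with a median of 0.42, but 2 reached the fold minimum. CYP79F1, the enzyme that commits elongated methionine to this pathway, stood at 519, 552 and 576 in At2+, against 227, 280.5 and 276 in At3++ and 94.6, 129.9 and 134 in Col-0, with a limma estimate of 1.07 (standard error 0.14, adjusted p = 1.59e-05) on the log2 scale, and of 0.98 without At3++ replicate 1. MYB29, a regulator of the pathway, stood at 69.2, 54.5 and 65.3 in At2+ and 39.8, 30.4 and 24 in At3++ (log2 fold change 1.01, adjusted p = 0.00937). Its fold change was under the minimum without At2+ replicate 1 (0.93), At2+ replicate 3 (0.98), At3++ replicate 2 (0.997) or At3++ replicate 3 (0.83, adjusted p = 0.0686). The same held by edgeR (0.98), by DESeq2 (0.99) and with libraries rescaled to the sum over nuclear genes (0.95). In the other pair CYP79F1 stood at 987, 1001 and 1028 in At2++, against 102 and 121 in At3+, a wider difference (between the pairs -2.09, adjusted p = 6.93e-08).

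Transcripts encoded in the organelles made up 95 of the 186 genes higher in At2+. Of 92 tested chloroplast-encoded genes 78 were higher, 0 were lower and all 92 had a positive fold change, with a median of 1.76. Of 37 tested mitochondrion-encoded genes 17 were higher and 0 lower, with a median of 1.26. Chloroplast-encoded genes took 0.99%, 0.405% and 0.563% of the reads on genes in At2+, against 0.241%, 0.2% and 0.192% in At3++, and 0.0339%, 0.0687% and 0.033% in Col-0. Mitochondrion-encoded genes took 0.13%, 0.113% and 0.102% in At2+, against 0.044%, 0.0451% and 0.0553% in At3++. The shares did not overlap between the lines, although At2+ replicate 1 stood well above the other At2+ libraries for the chloroplast. With 3 libraries against 3 the smallest exact p is 0.1, so an exact permutation test of the shares could not reach 0.05. Without At2+ replicate 1, 62 chloroplast-encoded and 11 mitochondrion-encoded genes were higher, and 1 mitochondrion-encoded gene was lower.

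The fold changes of the 10 chloroplast identifiers picked by the naming rule ran from 2.63 (ATCG00530) to 4.07 (ATCG00010) on the log2 scale, and from 2.01 to 3.55 for the same identifiers without At2+ replicate 1. ATCG00530 stood at 1891, 417 and 664 in At2+ and 163, 94.2 and 141 in At3++, and ATCG01070 at 793, 222 and 339.6 in At2+ and 74.4, 45 and 52.7 in At3++. In both genes replicate 1 was the highest At2+ library and the lines did not overlap. YCF4 (ATCG00520), needed to assemble photosystem I, averaged 889.6 in At2+ and 177 in At3++, and NDHA (ATCG01100), a subunit of the chloroplast NADH dehydrogenase-like complex, 1687 in At2+ and 385 in At3++ (both chosen after their values were seen). The libraries were selected for poly(A) RNA, which most organelle transcripts lack. A ribosomal RNA gene in the nucleus, AT3G41768, was also higher in At2+, at 23062, 37105 and 21017 in At2+, against 9784, 9129 and 17875 in At3++ and 3751, 7407 and 3068 in Col-0 (log2 fold change 1.16, limma adjusted p = 0.0146). Within the lines this gene did not follow the chloroplast share. It was highest in At2+ replicate 2 and At3++ replicate 3, which had the lowest chloroplast shares of their lines (0.405% and 0.192%). At3++ replicate 3 had the highest mitochondrial share of its line (0.0553%). The call of AT3G41768 was lost without At2+ replicate 2 (limma adjusted p = 0.0864), At3++ replicate 1 (0.0751) or At3++ replicate 2 (0.0843). The part that the carry-over of RNA without a poly(A) tail had in the organelle counts was not tested. Nuclear genes of the light reactions and of the Calvin cycle had 0 of 41 and 0 of 14 members called, with medians of 0.17 and 0.23, and the organelle RNA polymerase and sigma factor genes 0 of 9, with a median of -0.04. The light reaction and Calvin cycle genes still leaned to At2+, with positive fold changes in 36 of 41 and 14 of 14. By the adjusted p alone 6 and 4 of them were higher and 0 lower, beside 4.85% higher and 5.63% lower of all genes tested.

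**Figure D4:**
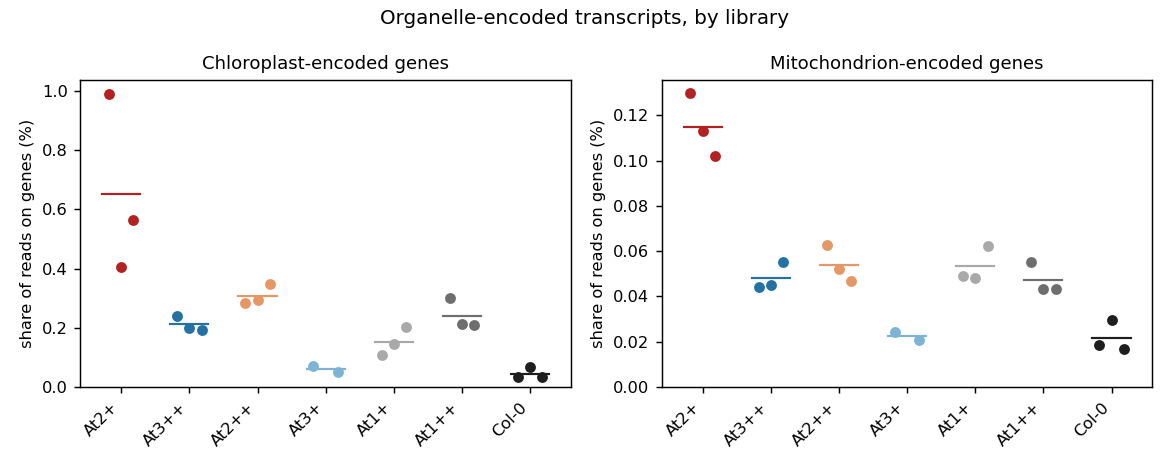
Share of the reads on genes, in percent, taken by chloroplast-encoded (left) and mitochondrion-encoded genes (right) in each of the 20 distinct libraries, with points for libraries and lines for group means. The 3 At2+ libraries are the highest of all in both panels, and the highest chloroplast share, 0.99%, is At2+ replicate 1.

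A few genes separated the lines as if on or off. Across all 20 libraries, 58 of the genes tested had a gap of at least 2 on the log2 scale that divided whole groups into a high and a low set, and in 9 of them At2+ and At3++ fell on opposite sides (this rule was set after the data were seen). AtIPCS2, AtIPCS3 and PDF1.2B were 3 of the 9. AT3G01345 (chr3:129138-130749) stood at 6.41, 4.64 and 14.4 in At2+, against 3055, 3475 and 3291 in At3++ (log2 fold change -8.57, standard error 0.20, limma adjusted p = 2.29e-20). It stood at 34.3, 22.4 and 24.6 in Col-0 and between 2637 and 4254 in every library of the other 5 over-expressing lines, so At2+ alone among them was low like Col-0. AT1G75945 (chr1:28515245-28515916) was the reverse, at 135, 107 and 111 in At2+ and 61.2, 37.4 and 44.8 in Col-0, with 1.02, 0 and 0 in At3++ and no more than 3.56 in any library of the other over-expressing lines (log2 fold change 6.54, standard error 0.45, adjusted p = 2.86e-10). With 1 read over the 3 At3++ libraries, the ratio of its summed reads, At2+ over At3++, was 323, with a counting interval of 57.5 to 12802 (95%).

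The remaining 4 genes drew other lines. VIP1, a bZIP transcription factor named for its interaction with an Agrobacterium virulence protein, stood at 195, 178 and 194 in At2+, against 1050, 1008 and 973 in At3++ and 1136, 1097 and 1065 in Col-0, and every library outside At2+ had at least 787 (log2 fold change -2.41, standard error 0.06, limma adjusted p = 5.53e-20). CYP97B3, a cytochrome P450 of the carotenoid hydroxylase family (chr4:8629647-8633118), stood at 1221, 1207 and 1220 in At2+, against 226, 254 and 258 in At3++, at 1658, 1514 and 1511 in At2++, against 161 and 193 in At3+, and at 1127, 1069 and 1163 in Col-0, so that both AtIPCS2 lines were level with or above Col-0 and the AtIPCS3 lines, like the AtIPCS1 lines, far below. AT3G44006 and AT2G15042 were low in both AtIPCS2 lines alone, the first at 2.56, 0 and 1.11 in At2+, against 41.8, 56.5 and 70.7 in At3++, and the second at 5.13, 4.64 and 5.53 in At2+, against 53, 38.7 and 39.5 in At3++. Conversely scpl44, a serine carboxypeptidase-like gene chosen after its values were seen, had reads chiefly in the AtIPCS2 lines, at 23.1, 6.95 and 18.8 in At2+, against 0, 1.05 and 1.2 in At3++, and at 40.9, 27.1 and 16.3 in At2++, against none in At3+.

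**Figure D5:**
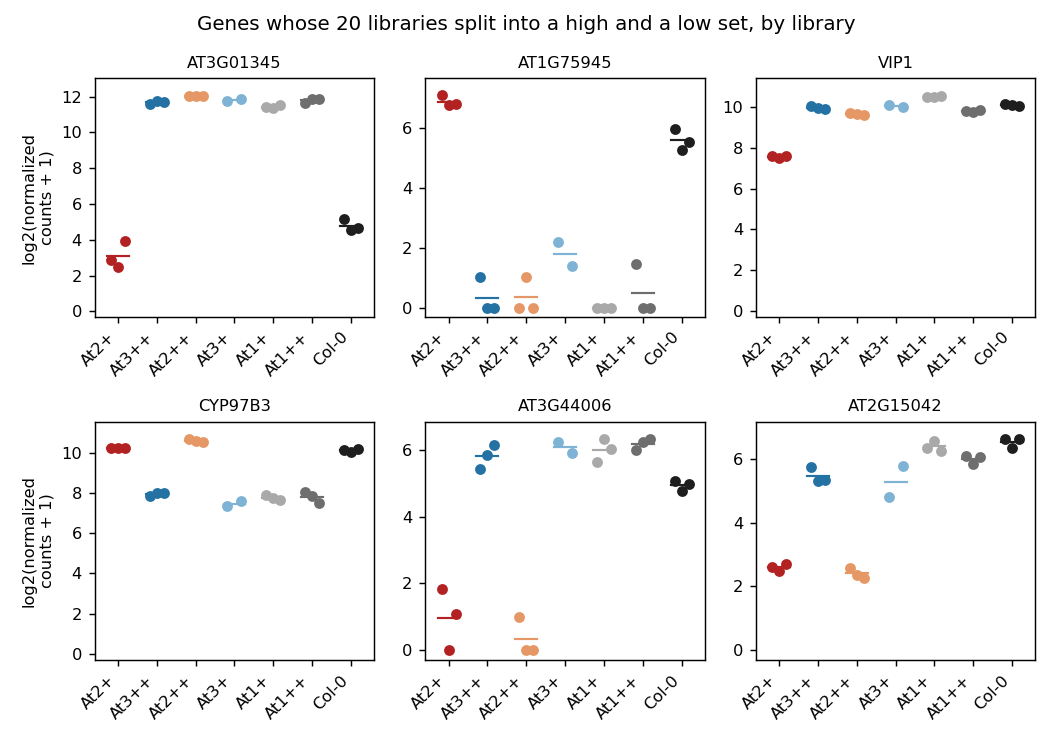
Normalized counts on a log2(value + 1) axis of 6 genes whose 20 libraries split into a high and a low set with At2+ and At3++ on opposite sides, with points for libraries and lines for means of the log2 values. At2+ sits with Col-0 for AT3G01345 and AT1G75945, alone for VIP1, with At2++ and Col-0 for CYP97B3, and with At2++ for AT3G44006 and AT2G15042.

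AT2G15042 also belonged to a run of 3 genes called lower in At2+ within 5 consecutive tested genes of chromosome 2, with AT2G06355 and AT2G15020. AT2G06355 had no read in At2+, against 13.3, 7.33 and 9.59 in At3++, at least 2.84-fold lower at the floor of 3 reads per library. AT2G15020 had no read in At2+ either, but few in At3++ (6.12, 3.14 and 1.2), and its call was lost without At3++ replicate 1 (limma adjusted p = 0.0935). Besides this run, the SESA2 to SESA4 cluster was the only one found.

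Other called members of the lists were few and mostly low in reads. RVE8, a clock transcription factor, stood at 6.41, 11.6 and 7.74 in At2+ and 21.4, 16.7 and 24 in At3++ (log2 fold change -1.20, limma adjusted p = 0.00349), and was the 1 called among 31 clock and photoperiod genes, with a list median of -0.10. NRT2.1, the root high-affinity nitrate transporter, stood at 1.28, 4.64 and 3.32 in At2+ and 12.2, 9.42 and 7.19 in At3++, and at 46.8, 54.2 and 37.4 in At2++ and 1.78 and 0.799 in At3+. PIL1, a shade response factor, stood at 0, 2.32 and 0 in At2+ and 3.06, 2.09 and 8.39 in At3++. GOLS3, a cold-induced galactinol synthase, was higher, at 11.5, 6.95 and 11.1 in At2+ and 1.02, 6.28 and 1.2 in At3++, as was LTP4, a lipid transfer protein, at 8.97, 2.32 and 2.21 in At2+ and 2.04, 0 and 0 in At3++. They were the called members of the lists of nitrate response (NRT2.1, 1 of 13), light and shade signalling (PIL1, 1 of 17), cold and dehydration (GOLS3, 1 of 17) and lipid transfer (LTP4, 1 of 10), whose medians were 0.12, -0.14, 0.12 and 0.39. The calls of these 4 genes rested on single libraries. NRT2.1 lost its call without any 1 of the 6 libraries other than At2+ replicate 2 (limma adjusted p = 0.0605 to 0.201), PIL1 without At2+ replicate 1 or 3 or At3++ replicate 1 or 3 (0.0538 to 0.19), GOLS3 without At2+ replicate 1 or 3 or At3++ replicate 1 or 3 (0.0663 to 0.108) and LTP4 without At2+ replicate 1 or At3++ replicate 2 or 3 (0.103 to 0.172).

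No member was called in the lists of flavonoid synthesis (0 of 18), indole glucosinolates and camalexin (0 of 12), the myrosinase system (0 of 8), phosphate starvation (0 of 19), iron response (0 of 22), heat shock (0 of 14) and sugar starvation (0 of 18). Their medians ran from -0.18 for the myrosinase system to 0.15 for the iron response. As checks of tissue make-up, markers of root hairs and endodermis had 0 of 14 called, a median of 0.23 and a summed level of 2992 to 3472 in At2+ and 2984 to 3206 in At3++. Markers of guard cells, trichomes and the shoot apex had 0 of 9 called, a median of 0.03 and summed levels of 860 to 954 in At2+ and 882 to 917 in At3++. The 3 floral identity genes did not reach the minimum to be tested, with a summed level of at most 2.56 in At2+ and 5.99 in At3++.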

How the data were processed

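Gene expression was measured by RNA-seq in 21 libraries of Arabidopsis seedlings, of which 20 were distinct. According to the methods, reads were trimmed with Trimmomatic, aligned with STAR to the Araport annotation and counted per gene with HTSeq, with the strand setting not given in the sources used here. The deposited signal values are counts that the authors normalized by library with DESeq size factors. Every value was a whole multiple of 1 read within a tolerance of 0.02 (100% of values), so reads were recovered. Since the values are normalized, the main test was limma 3.58.1 with a trended variance (R 4.3.3) on log2(normalized count + 1), for genes whose mean reached 1, with all 7 groups in one fit. Calls required a Benjamini-Hochberg adjusted p below 0.05 together with a log2 fold change of 1 or more in either direction. Count models on recovered reads (edgeR 4.0.16, DESeq2 1.42.0), other pseudocounts, filters, scalings, a replicate block and left-out libraries were alternatives, and the code was tested on simulated data. Intervals cover counting error only.

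Identical replicates 1 and 2 of At3+ were counted once. Genes were named by rule: AtIPCS1 to AtIPCS3, the 12 called genes of largest fold change per direction whose libraries did not overlap and whose higher line averaged 20 or more, up to 4 called members per list, genes with at most 3 reads per library in one line and 30 or more in the other, and runs of 3 or more called genes within 5 neighbours. Other genes are said to have been chosen after their values were seen, and called list members given only as examples (SAG13, LURP1, RLP23, CRU3, CRA1, EM1 and EM6) were too. The members and lists were chosen with earlier results of these data known. Names, coordinates and promoters came from RefSeq (TAIR10.1), which matched 22093 of the tested identifiers. A further promoter sequence is not reported here.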

Additional observations from a re-analysis of the deposited data

Results flagged for a closer look

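For 17 of the genes picked by the naming rule the difference between the lines was itself different in the other pair of lines, by the interaction term of limma (At2+ minus At3++, less At2++ minus At3+, on the log2 scale). They lay among 67 named genes put through the alternative runs, some of them chosen after their values were seen. Over all genes tested the term was called for 6.5%. The naming rule used At2+ minus At3++, which is part of the term, so a larger share among named genes was set by the choice. Among the genes that split the libraries into sets, the interaction was 7.98 for AT1G75945, -8.81 for AT3G01345 and -2.02 for VIP1. Among seed genes it was -3.43 for SESA5, -3.26 for OLEO4, -3.32 for OLEO2, -3.29 for PER1, -3.88 for SESA2 and -1.69 for SESA3, each lower in At2+ than in At3++ and with a positive fold change in the other pair. Among regulators it was -1.7 for JAZ7, -1.49 for RVE8 and -2.39 for PIL1, and for the wall enzyme TCH4 it was -1.96. CYP79F1 (-2.09) and LTP4 (-3.33) were higher in the AtIPCS2 line of both pairs, by more in At2++. NRT2.1 (-5.83) and AT2G15020 (-2.44) were the others of these 17, both resting on few reads in At2+ and At3++. Genes named outside the rule passed the same test too, among them EXO, EXL5, PHI-1, EXLA1, XTH33, LURP1, SAG13, CRU3, CRA1, EM1, EM6, NSP2, RAB18, RAP2.6 and FAMT. No cause was tested for any of these.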

How the results depend on the processing

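The counts of genes called in At2+ against At3++ (186 higher, 210 lower) were 170 and 189 by edgeR, 147 and 162 by DESeq2, and 177 and 176 with only the libraries compared in the fit. Without a minimum on the fold change they were 1078 and 1251, with 4473 and 4122 for At2++ against At3+, 2199 and 2738 for the difference between the pairs, 5025 and 4786 for At2+ against Col-0, and 4533 and 4025 for At3++ against Col-0. With the minimum raised to 2 on the log2 scale, in the same order, they were 49 and 39, 253 and 246, 229 and 292, 325 and 151, and 236 and 90. Over nuclear genes only, an alternative chosen after seeing the data, 90 were higher, since organelle genes were left out. Rescaling to the sum over nuclear genes shifted the median of all genes to -0.058 for At2+ against At3++, -0.187 for At2++ against At3+, 0.127 for the difference between the pairs, -0.214 for At2+ against Col-0 and -0.155 for At3++ against Col-0. The calls were then 163 and 239, 719 and 991, 743 and 694, 780 and 992, and 699 and 730. Leaving out 1 library at a time gave 152 to 178 higher and 154 to 212 lower in At2+ against At3++, 876 to 976 and 624 to 733 in At2++ against At3+, 481 to 610 and 747 to 889 for the difference, 972 to 1053 and 560 to 619 for At2+ against Col-0, and 805 to 928 and 441 to 512 for At3++ against Col-0. Where this left At3+ with 1 sample, it was assumed to vary like the other groups.

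Replicate numbers did not pair the samples (correlation of deviations 0.0056, -0.01 and 0.0095 for the 3 numbers). With the replicate block the counts were 177 and 205 for At2+ against At3++, and among named genes it ended the call of NRT2.1 (adjusted p = 0.054 by limma). None of the 67 named genes put through the alternatives reversed its direction. SAG13, LURP1, RLP23, CRU3, CRA1, EM1, EM6, RAB18, GH9B15, YCF4 and NDHA were not put through them. Depth limits genes with few reads: DESeq2, edgeR or a pseudocount of 0.1 ended calls of some of them, and fold changes of genes without reads in a line are no bounds. Calls of genes with more reads ended too. MYB29 fell under the fold minimum by edgeR and DESeq2, AT3G41768 had a DESeq2 adjusted p of 0.0664, and SESA5 and NSP2 lost their calls with the pseudocount of 0.1.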
